A study of Homo sapiens with 16 samples.

Results

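The GATA2 locus was examined as the 20 kb bins of the Hi-C contact maps that lie over GATA2 (chr3:128180001-128220000, 2 bins) and over the interval taken for RPN1 (chr3:128320001-128400000, 4 bins), in build hg19. The rule that names these 6 bins uses position and no measured value, although the locus was picked with earlier results of these data known. They were taken from 137198 bins of chromosomes 1 to 22 and X that were present in all 8 libraries. Their contacts were followed in a window of 2.5 Mb around both genes, in which 121 of 125 bins were present. Hi-C cuts fixed chromatin with a restriction enzyme and ligates neighbouring ends, and each ligated pair read by sequencing counts as a contact between 2 places. K562, an established human leukaemia line with erythroid and megakaryocytic features, was used throughout, and the groups differed only in the time for which nuclei were digested with HindIII, 0.25, 1, 3 or 12 h, with 2 replicates each. The labels say nothing of separate cultures, so p-values measure only the spread between these libraries, which may be technical. The series is about the accessibility of boundaries between chromatin domains, and the shortest digestion was meant to cut the most open chromatin.

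GATA2 encodes a zinc finger transcription factor that binds GATA motifs and is needed for blood stem and progenitor cells. RPN1 encodes ribophorin I, a subunit of the oligosaccharyltransferase complex that attaches sugars to proteins in the endoplasmic reticulum. The stretch between both genes is known for breakpoints of chromosome 3 inversions and translocations in myeloid leukaemia. Contact maps fall into domains whose DNA touches itself more often than its surroundings, and the limits between them are called boundaries. A bin with few enzyme sites, poor cutting or poor mapping gives few contacts, which balancing of the map is meant to even out.

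In the RefSeq order of protein-coding genes, DNAJB8, EEFSEC, RUVBL1 and SEC61A1 follow each other on the lower side of GATA2, and RPN1 is its next neighbour on the higher side, followed by RAB7A and ACAD9. In RefSeq (GRCh38.p14) GATA2 is 13780 bases long and RPN1 30850 bases, so the last of the 4 RPN1 bins lies past the length of the RefSeq gene. The 2 bins of GATA2 are called its first bin and its promoter bin, and those of RPN1 its bins 1 to 4, all counted from the lower coordinate. The first GATA2 bin holds 2 kb of the GATA2 interval and the promoter bin 12 kb, and RPN1 bin 1 holds 1 kb of the RPN1 interval, so the first bin of each gene lies mostly outside it. GATA2 runs on the minus strand and has 2 start sites in RefSeq, 4671 bases apart, both inside the promoter bin by their distance from the upper end of the gene. The 250 bases before each start, from RefSeq, are shown because they are promoter sequence within that bin and because HindIII cuts only where it finds the letters AAGCTT in the DNA. Capitals mark CG steps, and coordinates are of GRCh38.p14, another build than that of the bins.
GATA2 upstream start, chr3:128493202-128493451, minus strand: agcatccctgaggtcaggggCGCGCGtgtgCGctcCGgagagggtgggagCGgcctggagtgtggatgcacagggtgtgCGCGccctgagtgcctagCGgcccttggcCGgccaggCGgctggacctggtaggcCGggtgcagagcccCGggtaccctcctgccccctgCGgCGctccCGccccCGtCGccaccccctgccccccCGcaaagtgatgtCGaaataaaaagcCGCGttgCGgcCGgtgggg
GATA2 downstream start, chr3:128488531-128488780, minus strand: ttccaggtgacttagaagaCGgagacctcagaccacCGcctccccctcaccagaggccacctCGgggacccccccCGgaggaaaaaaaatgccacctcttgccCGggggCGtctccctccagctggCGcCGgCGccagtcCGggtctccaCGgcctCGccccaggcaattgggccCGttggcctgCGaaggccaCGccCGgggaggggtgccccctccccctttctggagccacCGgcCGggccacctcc
Neither sequence holds AAGCTT, which reads the same on both strands, and 5.02% of 35116 RefSeq promoters of the same length hold it. They hold 24 and 18 CG steps, against a median of 11 over all promoters, and 76.3% and 63.2% of promoters hold fewer. HindIII sites in the rest of the bin were not counted.

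The second sequencing run, on a NovaSeq instrument, gave the 20 kb maps and 62777251 to 176412222 contacts per library, the fewest in the replicate 2 library of 0.25 h and the most in the replicate 1 library of 12 h. Depth therefore rose with digestion time, and levels are given as CPM, contacts of a bin with other bins per 1000000 such contacts in the library. The members were among the thinly covered bins of the genome. Averaged over the 8 libraries, the median bin had 1301 contacts with other bins per library and 12.95 CPM. The first GATA2 bin had 2.37 ± 0.460 (SD, n = 8) and the promoter bin 2.47 ± 0.382, and only 2.65% and 2.90% of all bins lay lower. RPN1 bins 1 to 3 had 3.46 ± 0.771, 2.46 ± 0.372 and 1.91 ± 0.325 CPM, with 5.69%, 2.88% and 1.52% of bins lower. RPN1 bin 4 stood above them at 5.83 ± 0.310, with 14.5% of bins lower. Among the 121 bins of the window, RPN1 bin 3 was the member nearest the bottom, at rank 6 from the lowest, and RPN1 bin 4 the nearest the middle, at rank 52.

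Both GATA2 bins and RPN1 bins 1 to 3 gained coverage between the shortest and the longest digestion, and RPN1 bin 4 showed no detectable change. The first GATA2 bin had 1.85 and 2.13 CPM in the 0.25 h libraries, 2.06 and 2.20 at 1 h, 2.09 and 2.60 at 3 h, then 2.92 and 3.14 at 12 h. The 12 h libraries were the highest of all, and the shorter times overlapped each other. Its difference of 0.25 h from 12 h was -0.61 on the log2 scale (SE 0.115, limma over all bins, Benjamini-Hochberg adjusted p = 0.000121). The promoter bin had 2.25 and 2.5 CPM at 0.25 h, 2.15 and 2.04 at 1 h, 2.14 and 2.76 at 3 h, then 2.85 and 3.06 at 12 h. The 12 h pair again lay above all others, with no order among the shorter times. Its difference was -0.31 (SE 0.115, limma adjusted p = 0.0257), and it missed the threshold without the 0.25 h replicate 1 library (limma adjusted p = 0.126) and without either 12 h library (limma adjusted p = 0.0513 without replicate 1 and 0.170 without replicate 2).

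RPN1 bin 1 had the widest difference of the 6. Its levels were 2.95 and 2.52 CPM at 0.25 h, 3.22 and 2.91 at 1 h, 3.43 and 3.46 at 3 h, then 4.64 and 4.58 at 12 h. Both 12 h libraries stood clear of the other 6, and the difference was -0.76 (SE 0.0911, limma adjusted p = 5.75e-07). RPN1 bin 2 had 2.41 and 1.81 at 0.25 h, 2.24 and 2.66 at 1 h, 2.45 and 2.29 at 3 h, then 2.89 and 2.95 at 12 h. The 0.25 h pair was widely spread but lay below the 12 h pair, with a difference of -0.48 (SE 0.121, limma adjusted p = 0.00177) that missed the threshold without the 0.25 h replicate 2 library (limma adjusted p = 0.0557). RPN1 bin 3 had 1.65 and 1.51 at 0.25 h, 1.78 and 1.78 at 1 h, 1.79 and 1.96 at 3 h, then 2.40 and 2.38 at 12 h. The 12 h libraries were again on top, and the difference was -0.59 (SE 0.112, limma adjusted p = 0.000115). RPN1 bin 4 had 5.81 and 6.04 at 0.25 h, 5.48 and 5.45 at 1 h, 5.65 and 5.90 at 3 h, then 6.39 and 5.95 at 12 h. Its shortest and longest times overlapped, and the difference of -0.06 (SE 0.0693) did not pass (limma adjusted p = 0.510).

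**Figure D1:**
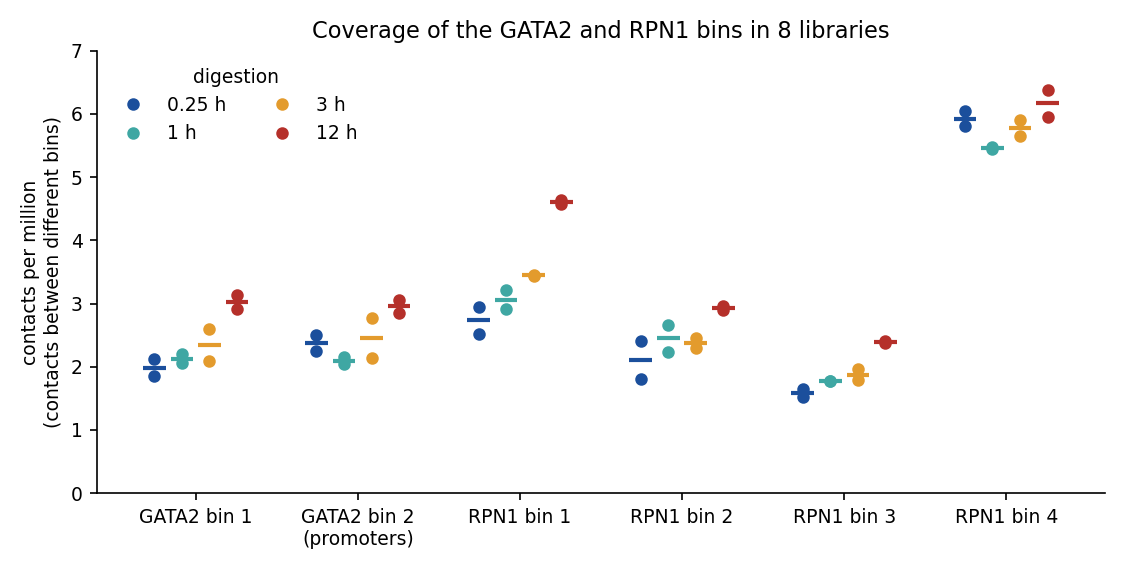
CPM of each of the 6 bins (vertical axis) by HindIII digestion time (colours), 1 point per library and a bar at the mean of the 2 replicates. In both GATA2 bins and RPN1 bins 1 to 3 the 12 h points lie above all others, and in RPN1 bin 4 the 0.25 h and 12 h points overlap.

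In all, 5 of the 6 bins had lower coverage at 0.25 h than at 12 h, where 34.9% of all bins were called lower. The whole window leaned the same way, since 87 of its 121 bins were called lower and 3 higher. The median difference was -0.30 in the window and -0.05 over all bins. The lean over all bins depends on the scaling, since limma called 47949 bins lower and 28512 higher here, but 37958 lower and 38449 higher under median-of-ratios scaling, where 4 of the 6 members were called lower. The same count of 5 was reached by 1 h against 12 h, where 28.9% of all bins were lower, but through other bins, because RPN1 bin 4 passed (limma adjusted p = 0.0440) and RPN1 bin 2 did not (limma adjusted p = 0.0818). At 3 h against 12 h the first GATA2 bin and RPN1 bins 1 and 3 passed (limma adjusted p = 0.0131, 0.00106 and 0.0161), beside 24.2% of all bins. Between 0.25 h and 1 h limma called 0 of all 137198 bins, with 13661 at an unadjusted p under 0.05, and between 1 h and 3 h 0, with 8101. The comparisons share the 12 h libraries, which also hold the most contacts, and the part of depth in these differences was not tested.

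The calls were next made on contacts within and between chromosomes. With contacts within the chromosome alone, the same 5 bins were lower at 0.25 h, beside 35.4% of all bins. With contacts to other chromosomes alone, 0 of the 6 passed in limma, beside 0.951% of all bins called lower. The first GATA2 bin held 39, 21, 38, 32, 40, 49, 86 and 73 such contacts in the 2 libraries of each time from 0.25 h to 12 h, so a change in these was poorly measurable at this depth. The differences between chromosomes were -0.20 in the first GATA2 bin, -0.08 in the promoter bin, -0.58 in RPN1 bin 1 and -0.47 in RPN1 bin 2, against -0.69, -0.35, -0.78 and -0.47 within the chromosome. In RPN1 bins 3 and 4 the direction turned, to 0.13 (SE 0.246, limma adjusted p = 0.799) and 0.38 (SE 0.159, limma adjusted p = 0.171), from -0.73 and -0.16.

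Added up per gene, RPN1 coverage rose with digestion time and GATA2 coverage was less clearly ordered. The RPN1 bins together had 12.8 and 11.9 CPM at 0.25 h, 12.7 and 12.8 at 1 h, 13.3 and 13.6 at 3 h, then 16.3 and 15.9 at 12 h. The GATA2 bins together had 4.1 and 4.63, then 4.20 and 4.24, then 4.23 and 5.36, and 5.76 and 6.19. For both genes the 12 h libraries exceeded every other library. Spearman's rank correlation with log2 hours was 0.88 for RPN1 (exact two-sided permutation p = 0.0103, 0.0361 after Benjamini-Hochberg adjustment over the 7 trends computed) and Pearson's r was 0.91 (exact permutation p = 0.00238, adjusted 0.00833). For GATA2 the rank correlation was 0.73 (exact permutation p = 0.0548, adjusted 0.128) and r was 0.79 (exact permutation p = 0.0230, adjusted 0.0537). The labels do not state pairing, and the p-values above take no account of it. In an alternative, replicate numbers were taken to pair the libraries. With the times permuted only within these numbers, the exact permutation p before adjustment was 0.0174 for the GATA2 rank correlation and 0.0208 for RPN1. Without the 12 h libraries r was 0.38 for GATA2 and 0.83 for RPN1, so the GATA2 relation rests on the 12 h libraries.

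Contacts that join 2 places inside the same bin were rare at both genes, and their share showed no detectable trend with digestion time. No test compared that course with the one of all bins. Shares here are of contacts listed by bin, where a contact between 2 bins counts once at each of them. Over all bins such self contacts made up 12.6% ± 1.72 of contacts listed by bin at 0.25 h (SD, n = 2), 10.5% ± 0.180 at 1 h, 9.86% ± 0.0647 at 3 h and 6.15% ± 0.0719 at 12 h. In the GATA2 bins the share was 2.36% and 0.452% at 0.25 h, 0.959% and 0.735% at 1 h, 0.982% and 1.24% at 3 h, then 2.18% and 0.942% at 12 h. These rest on 1 to 20 self contacts per library, and the 0.25 h pair spans all the others. In the RPN1 bins it was 2.10% and 2.42% at 0.25 h, 2.95% and 2.75% at 1 h, 2.34% and 2.80% at 3 h, then 2.08% and 2.45% at 12 h. The shortest and longest times of RPN1 overlapped. With the 8 libraries added, 9.1% of all bins had a lower self share than the first GATA2 bin and 15.6% than the promoter bin. For RPN1 bins 1 to 4 it was 21.1%, 18.6%, 7.96% and 26.8%. The shares over all bins given above are sums, in which well covered bins weigh most. The rank correlation with log2 hours was 0.20 for GATA2 (exact permutation p = 0.672) and -0.10 for RPN1 (exact permutation p = 0.861), which leaves no detectable trend.

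By bin, limma called 0 of the 6 members higher in the ratio of self contacts to other contacts at 0.25 h than at 12 h, where it called 64.2% of all bins higher. The fitted difference was above 0 without passing in the first GATA2 bin (0.96 on the log2 scale, limma adjusted p = 0.235). Its self share was 2.33% and 0.980% at 0.25 h against 0.873% and 0.930% at 12 h. These rest on 4 and 1 self contacts at 0.25 h and 4 and 4 at 12 h, too few to give a direction. RPN1 bin 3 (0.33, limma adjusted p = 0.670) and RPN1 bin 4 (0.37, limma adjusted p = 0.390) were also above 0 without passing. In the promoter bin the fitted difference was -0.92 without passing (limma adjusted p = 0.332). That bin held 5 and 0 self contacts at 0.25 h and 16 and 4 at 12 h. In RPN1 bin 2 the fitted difference was -0.22 (limma adjusted p = 0.787). RPN1 bin 3 held 1 and 0 self contacts at 0.25 h and 1 and 3 at 12 h, too few to give a direction. The median over all bins was 0.82. In RPN1 bin 1 the ratio was lower at 0.25 h. It held 4, 1, 12, 3, 5, 4, 22 and 22 self contacts in the 2 libraries of each time in order of time, and its self share was 1.47% and 0.826% at 0.25 h against 2.95% and 3.42% at 12 h. The pairs do not overlap, and the ratio was lower at 0.25 h by limma (difference -1.21 on the log2 scale, SE 0.444, adjusted p = 0.0300), a call made for 0.165% of all bins. It was lost without the 0.25 h replicate 2 library (limma adjusted p = 0.118) and without either 12 h library (limma adjusted p = 0.0743 without replicate 1 and 0.132 without replicate 2). In the window 63 of 121 bins were called higher at 0.25 h and 2 lower.

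Contacts of RPN1 also became more local with longer digestion. The share of contacts with other bins that lay within the window was, in the RPN1 bins, 51.9% and 53.6% at 0.25 h, 56.9% and 55.0% at 1 h, 56.9% and 56.0% at 3 h, then 61.2% and 59.2% at 12 h. The 0.25 h pair was the lowest and the 12 h pair the highest, with a rank correlation of 0.88 (exact permutation p = 0.0103, adjusted 0.0361) and r 0.93 (exact permutation p = 0.00238, adjusted 0.00833). The call was lost in the first sequencing run at 50 kb (rank correlation 0.44, exact permutation p = 0.300). That run was shallower, with 8918994 to 20237350 contacts per library. It was also lost with contacts of the same chromosome as the denominator (rank correlation 0.73, exact permutation p = 0.0548). In the GATA2 bins the share was 55.8% and 56.4%, then 53.8% and 53.0%, then 60.3% and 56.6%, and 60.2% and 59.7%. The 1 h pair was the lowest there, and the trend did not pass (rank correlation 0.68, exact permutation p = 0.0825, adjusted 0.144; r 0.68, exact permutation p = 0.0667, adjusted 0.117).

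The same was counted for contacts within 1 Mb, a measure that can be taken at every bin and was added after the window shares were seen. Over all bins this share was 56.6% ± 0.879 (SD, n = 2) at 0.25 h and 56.6% ± 0.584 at 12 h. In the RPN1 bins it was 51.2% ± 1.20 at 0.25 h and 59.0% ± 0.779 at 12 h, and in the GATA2 bins 55.2% ± 0.350 and 59.3% ± 0.0646. Both genes thus went from below the share of all bins to above it, as a description with no test. The course of GATA2 was not steady, with 52.1% ± 0.921 at 1 h and 57.5% ± 2.82 at 3 h. RPN1 had 54.4% ± 1.13 and 55.2% ± 0.571 at these times.

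**Figure D2:**
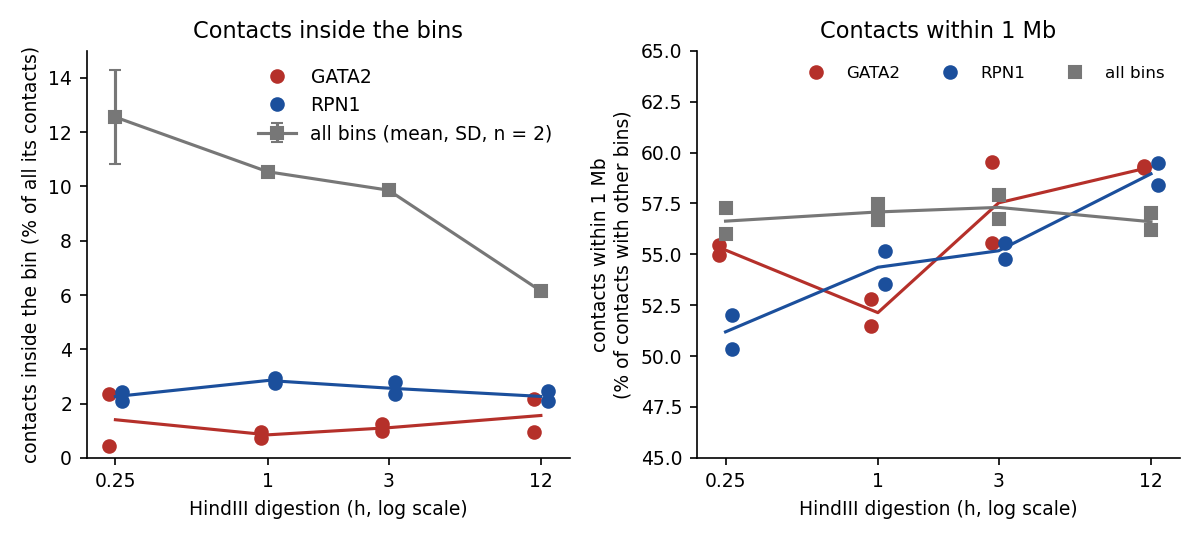
Left, contacts inside a bin as a percent of all its contacts, and right, contacts within 1 Mb as a percent of contacts with other bins, against digestion time in h on a log scale; circles are libraries (set slightly apart sideways), lines join the means of 2, and grey squares are all bins, with SD on the left. The grey line falls from 12.6% to 6.15% on the left while both genes stay under 3%, and on the right RPN1 climbs from 51.2% to 59.0% while all bins stay near 57%.

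To see which places the genes touched, recovered contacts were divided by the contacts expected from distance on chromosome 3 and from the balancing factors of both bins. A ratio of 1 means as many contacts as usual at that distance, and the 95% intervals are exact Poisson intervals that cover counting error only, since PCR copies were not tagged with molecular identifiers. All 8 libraries were added for these ratios, with the value of each library given beside the main ones. With the balancing factors taken in, the GATA2 bins and the bins of the RPN1 interval touched each other more often than usual. The 8 pairs of a GATA2 bin with an RPN1 bin held 113 contacts where 64.2 were expected, a ratio of 1.76 (95% interval 1.45 to 2.12). It was 1.78 and 1.46 in the 0.25 h libraries, 2.13 and 1.30 at 1 h, 1.26 and 1.98 at 3 h, then 1.56 and 2.18 at 12 h. All 8 libraries were above 1, and the times overlapped. Expected from distance alone, without the balancing factors, the ratio was 0.0854 to 0.244 over the libraries, where the low coverage of these bins enters.

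The ratio was above 1 beyond counting error in RPN1 bins 1 and 2 and not in bins 3 and 4, and bin 1, which holds 1 kb of the RPN1 interval, gave the most contacts. GATA2 contacted RPN1 bin 1 at 2.41 times the expected level (49 contacts, 95% interval 1.79 to 3.19), bin 2 at 1.97 times (24 contacts, 1.26 to 2.93), bin 3 at 1.62 times (13 contacts, 0.864 to 2.78, above 1 in 4 of 8 libraries) and bin 4 at 1.14 times (27 contacts, 0.751 to 1.66). The order falls from bin to bin, but each interval overlaps that of the next. Bins 1 to 3 together had 86 contacts for 40.5 expected, a ratio of 2.12 (95% interval 1.70 to 2.62). Per library these bins had 2.15 and 2.1 at 0.25 h, 2.57 and 2.14 at 1 h, 1.41 and 2.89 at 3 h, then 1.65 and 2.51 at 12 h, against 1.27 and 0.761, 1.36 and 0, 0.999 and 0.687, and 1.40 and 1.50 for bin 4. Bins 1 to 3 were above bin 4 in 8 of 8 libraries, by 1.18 ± 0.714 (SD, n = 8). This comparison and those of the sides of each gene were chosen after the values were seen and are given as descriptions, with no test.

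Among the single pairs, the first GATA2 bin with RPN1 bin 1 held the most contacts, 27, at 2.92 times the expected level (95% interval 1.92 to 4.25), and both of these bins lie mostly outside the genes. The promoter bin with RPN1 bin 2 held 16 contacts, at 2.42 times (1.38 to 3.93), and the promoter bin with RPN1 bin 1 held 22, at 1.99 times (1.25 to 3.01). The intervals of the other 5 pairs included 1. As background, the ratio of 1.76 of GATA2 with all 4 RPN1 bins was exceeded at 2.90% of 127382 places of the same shape in the genome, whose median was 0.93. The ratio with RPN1 bins 1 to 3 was exceeded at 1.23% of 128847 places, and that with RPN1 bin 4 at 24.8% of 131865 places. Most of those places hold more contacts and vary less by counting. The 5 bins between the genes had 451 contacts with GATA2 for 400 expected, a ratio of 1.13 (95% interval 1.03 to 1.24). The 2 GATA2 bins touched each other less than usual, with 23 contacts, a ratio of 0.49 (0.313 to 0.740), below 1 in 7 of 8 libraries.

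No change of the GATA2 to RPN1 contact with digestion was detectable. The ratio of 0.25 h to 12 h was 0.907, with a 95% interval of 0.467 to 1.65 from 14 and 57 contacts. From the balanced signal, the rank correlation with log2 hours was 0 (exact permutation p = 1, n = 8). The first sequencing run was shallower, and its 50 kb bins cover wider stretches. There the rank correlation was -0.78 (exact permutation p = 0.0349), with means of 2.22, 1.97, 1.79 and 1.36 from 0.25 h to 12 h. Of 239 GATA2 pairs in the window 1 reached the mean of 10 contacts needed for a test, and of 474 RPN1 pairs 8 did. Limma called 0 of them between 0.25 h and 12 h, with 0 and 1 at an unadjusted p under 0.05, beside 0.0896% of 1279173 pairs in the genome.

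**Figure D3:**
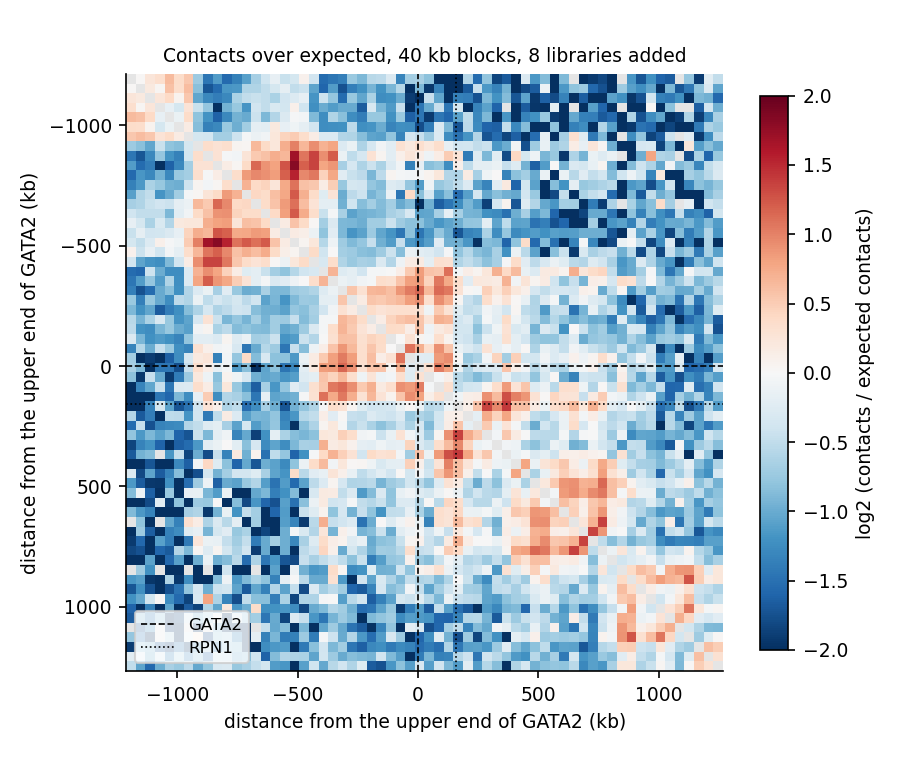
Map of the window in 40 kb blocks, with distance from the upper end of GATA2 in kb on both axes and log2 of contacts over expected contacts in colour, all 8 libraries added; grey blocks have under 3 expected contacts or lie on the diagonal. The dashed GATA2 line is mostly red from 380 kb on the lower side up to RPN1 and paler or blue farther out on both sides, and the dotted RPN1 line is reddest on its higher side.

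From 200 to 380 kb away, GATA2 contacted the lower side more than the higher. Its contacts were 1.90 times the expected level on the lower side (467 contacts, 95% interval 1.73 to 2.08) and 0.761 times on the higher side, past RPN1 (143 contacts, 0.642 to 0.897). Over the libraries the lower side ranged from 1.69 to 2.14 and the higher side from 0.439 to 0.942, with no overlap. The difference was 1.19 ± 0.290 (SD, n = 8), positive in 8 of 8 libraries. From 100 to 180 kb, where RPN1 lies on the higher side, the ratios were 1.41 on the lower side (95% interval 1.24 to 1.59) and 1.92 on the higher (1.65 to 2.23). From 400 to 780 kb the lower side was below the expected level, at 0.825 (0.703 to 0.962), and the higher side was at 1.03 (0.879 to 1.20).

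RPN1 contacted the higher side more than the lower from 100 to 180 kb away. It made 2.13 times the expected contacts there (891 contacts, 95% interval 1.99 to 2.27) and 1.34 times on the lower side (320 contacts, 1.20 to 1.50). The libraries ranged from 1.97 to 2.31 on the higher side and from 1.04 to 1.60 on the lower, again without overlap, and the difference was 0.823 ± 0.240 (SD, n = 8), positive in 8 of 8 libraries. From 200 to 380 kb the ratios were 1.33 (1.21 to 1.45) on the higher side and 1.06 (0.976 to 1.14) on the lower.

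The order of sides differed among the 4 RPN1 bins. Counted from 100 to 380 kb to each side, RPN1 bin 1 leaned to the lower side like the GATA2 bins, with 1.56 times the expected contacts on the lower side (95% interval 1.41 to 1.72) and 1.32 times on the higher (1.19 to 1.47), the lower side being the greater in 7 of 8 libraries. These intervals overlap, and the mean of the 0.25 h libraries had the other order, 1.33 ± 0.261 (SD, n = 2) on the lower side and 1.64 ± 0.932 on the higher. For the first GATA2 bin these were 1.64 and 1.18, with the lower side greater in 6 of 8 libraries, and for the promoter bin 1.71 and 1.16, in 8 of 8. RPN1 bin 2 had 1.15 (0.997 to 1.31) on the lower side and 1.67 (1.49 to 1.87) on the higher. Bin 3 had 0.857 (0.702 to 1.04) and 2.00 (1.75 to 2.27), and bin 4 had 0.776 (0.691 to 0.869) and 1.77 (1.63 to 1.91). In RPN1 bins 2, 3 and 4 the lower side was the greater in 0 of 8 libraries.

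**Figure D4:**
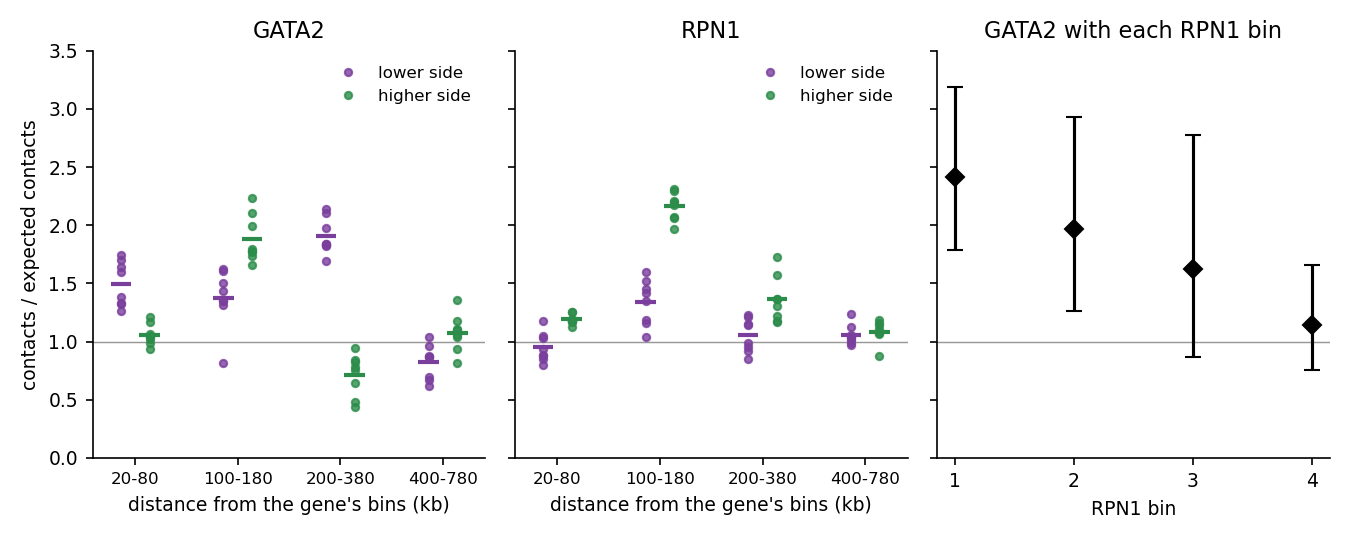
Contacts over expected contacts of GATA2 (left) and RPN1 (middle) by distance from the gene's bins in kb, for the lower-coordinate and higher-coordinate sides, with 1 point per library and a bar at the mean of 8; on the right, GATA2 with each RPN1 bin, all libraries added, with exact Poisson 95% intervals. GATA2 points at 200 to 380 kb separate into 1.69 to 2.14 on the lower side and 0.439 to 0.942 on the higher.

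By mean balanced ratio over the libraries, the leading window bins for GATA2 were chr3:129180001-129200000, chr3:127860001-127880000, RPN1 bin 1, chr3:127880001-127900000 and chr3:128860001-128880000. The bins led by 129180001 and 128860001 rest on 2 contacts each and are not read further. The bin from 127860001 had 46 contacts with GATA2, 2.95 times the expected level (95% interval 2.16 to 3.94), and the one from 127880001 had 133, 2.46 times (2.06 to 2.91). With bins of at least 40 contacts, a limit set after the values were seen, the next were chr3:128300001-128320000, beside RPN1, at 2.32 times (60 contacts, 1.77 to 2.99) and chr3:127920001-127940000 at 2.25 times (53 contacts, 1.69 to 2.95). At the other end, 7 of 117 window bins had 0 contacts with GATA2 in all 8 libraries, among them the 3 lowest by rule, which start at 129320001, 129340001 and 129460001.

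The leading partners of RPN1 were chr3:128860001-128880000, chr3:128660001-128680000, chr3:128560001-128580000, chr3:128500001-128520000 and chr3:128520001-128540000, all on its higher side. The first of these rests on 11 contacts. The bin from 128500001 had 390 contacts, 2.43 times the expected level (95% interval 2.20 to 2.69), the one from 128560001 had 114, 2.59 times (2.13 to 3.11), the one from 128520001 had 167, 1.93 times (1.65 to 2.25), and the one from 128660001 had 50, 2.25 times (1.67 to 2.96). These counts pool all 4 RPN1 bins, and bin 4 lies past the RefSeq gene. With the bin from 128500001, RPN1 bin 4 alone held 23, 14, 33, 10, 29, 22, 49 and 33 contacts in the libraries in order of time. The lowest partners start at 127060001, 127080001 and 127180001, with 0, 3 and 2 contacts. The bins whose contact profile across the window was most like that of the GATA2 promoter bin start at 128640001, 128720001 and 128500001, with Pearson's r of 0.50, 0.46 and 0.44 over 115 bins that share libraries and depth. How far r is held down by the low counts of these pairs was not tested.

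The insulation score, the log2 of the mean balanced signal that crosses a bin within 200 kb to each side relative to the chromosome, is low where few contacts cross. Both GATA2 bins lay on high ground. The first scored 0.29 and 0.42 at 0.25 h, 0.27 and 0.24 at 1 h, 0.33 and 0.31 at 3 h, then 0.29 and 0.38 at 12 h, and the promoter bin averaged 0.26 ± 0.0709 (SD, n = 8). Of all bins, 85.9% and 82.3% scored lower. RPN1 held a local minimum, at bin 2. Bin 2 scored -0.28 and -0.32 at 0.25 h, -0.24 and -0.30 at 1 h, -0.29 and -0.19 at 3 h, then -0.25 and -0.19 at 12 h, while bin 1 averaged -0.22 ± 0.0718, bin 3 0.01 ± 0.0783 and bin 4 0.21 ± 0.0773. All 8 libraries were below 0 in bins 1 and 2 and above 0 in bin 4, so the rise across RPN1 was present at each digestion time.

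By its score the RPN1 minimum was a shallow one. Its mean was -0.26 ± 0.0490 (SD, n = 8), and 22.8% of all bins scored lower. The next minima on either side had lower scores. On the lower side they lay at chr3:127860001-127880000 (-0.48 ± 0.0778) and chr3:127780001-127800000 (-0.51 ± 0.0621), and on the higher side at chr3:128620001-128640000 (-0.55 ± 0.149). The bin from 127860001 was thus both a minimum and the partner with the highest ratio to GATA2 among those with at least 40 contacts. By prominence, the rise in score needed to leave a minimum, the order was another one. It was 0.80 at RPN1, more than at the bins from 127860001 (0.23) and 129320001 (0.53) and less than at those from 127780001 (1.22), 129040001 (1.28), 128620001 (1.37) and 127260001 (1.85). Farther out, minima lay at the bins that start at 127260001 (-1.04 ± 0.161), 129040001 (-0.41 ± 0.118) and 129320001 (-0.08 ± 0.0793).

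**Figure D5:**
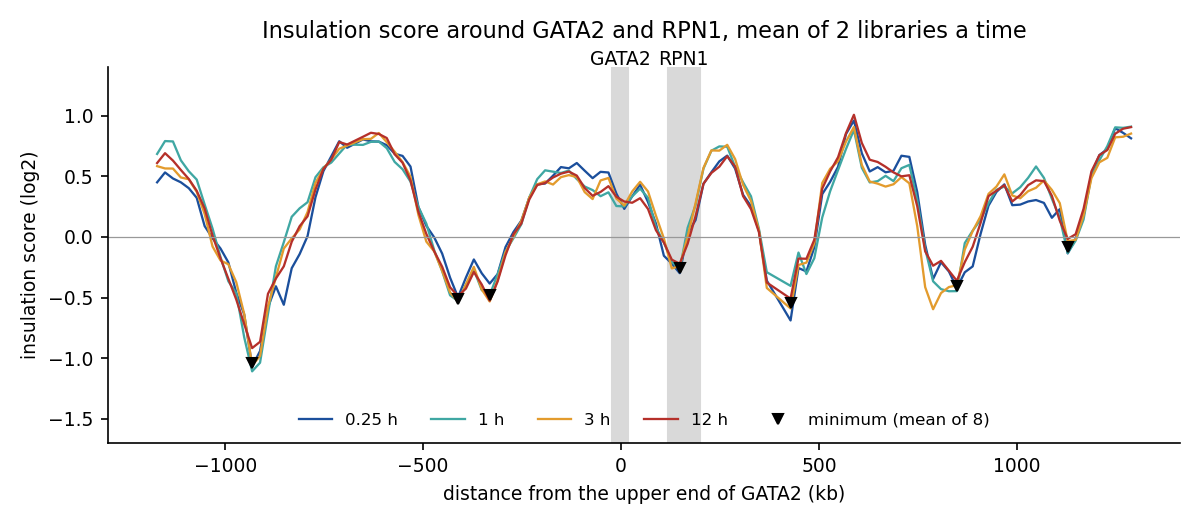
Insulation score (log2) along the window by distance from the upper end of GATA2 in kb, 1 line per digestion time, each the mean of 2 libraries, with grey bands over the bins of both genes and triangles at local minima of the mean of 8. GATA2 lies between 0.23 and 0.36 at all times, and a minimum of -0.26 lies in the RPN1 band.

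The scores did not differ detectably between digestion times. Limma called 0 of the 6 members between 0.25 h and 12 h (difference at RPN1 bin 2 -0.08, SE 0.0762, adjusted p = 0.820), beside 0 of 134553 bins, of which 10776 had an unadjusted p under 0.05. The 0.25 h and 12 h scores of RPN1 bins 2 and 4 do not overlap, and those of the other 4 members do. Neither of these bins passed (limma adjusted p = 0.820 and 0.927), and the share of all bins without overlap was not counted. With 2 libraries at each time, pairs can separate without any change, so no difference is read from this. The 6 other minima had adjusted p from 0.628 to 0.982 in the same limma fit. On recovered contacts without balancing, where a bin's own coverage enters the score, all 6 members passed, beside 42.3% of all bins.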

How the data were processed

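Hi-C contacts of K562 nuclei were analysed in 8 libraries (4 digestion times, 2 replicates). Per the submitters' processing notes, HiC-Pro 2.11.1, Bowtie2 2.3.4.1 and build hg19 were used. The files deposited by the authors hold a balanced contact signal per pair of bins, of 20 kb in the second run and 50 kb in the first. Balancing settings are not given in the sources used here. Bin totals agreed within 0.0097%, and 89.0% to 89.1% of bins were present in the second run. Whole contacts were recovered by dividing each signal by a factor per bin, and all values came within 0.01 of a whole number. Recovery and limma were also run on simulated data, with outcomes not given here. The simulated limma data held far fewer changed bins than were called here, so no error rate of these calls is read from them.

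From these, log2 CPM (pseudocount 0.5), self-contact ratios, insulation scores and pair ratios were fitted with limma 3.58.1 (R 4.3.3) over all bins or pairs, all times in 1 fit, with Benjamini-Hochberg adjustment and a threshold of 0.05. No count model was run. Trends used exact permutation tests (scipy 1.17.1). Deviations of same-numbered libraries from their time means correlated at 0.110 to 0.254 in coverage, over 0.1 in every pair. In insulation they correlated at -0.00270 to 0.0164. The main limma fits and trends took no account of pairing. Pairing by replicate number entered only alternatives, run with a replicate block. Pairing is not stated in the labels. Replicate 1 held more contacts than replicate 2 at each time, and the part of depth in these correlations was not tested. Partner bins were the 5 highest and 3 lowest by mean ratio, at least 40 kb from the gene, with the 3 profiles most like the promoter bin and all minima with a prominence of at least 0.2. Members, lists and tests were chosen with earlier results of these data known. Alternatives left out each library, changed scaling, contacts counted, distance model, square size and minimum contacts, and used the first run.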

Additional observations from a re-analysis of the deposited data

How the results depend on the processing

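Depth limits results on pairs, since 1 of 239 GATA2 pairs and 8 of 474 RPN1 pairs held enough contacts for a test. The coverage count of 5 was 4 to 5 when each library was left out and 0 with contacts between chromosomes only, where the RPN1 bin from 128360001 reversed to 0.13. The GATA2 coverage rank correlation of 0.73 passed with the replicate block (0.73, exact permutation p = 0.0174), within the chromosome (0.78) and with contacts inside the bin (0.78), and ranged from 0.61 to 0.90 leaving out 1 library, passing without 0.25 h replicate 2 (exact permutation p = 0.0127), 1 h replicate 2 (p = 0.0381) or 3 h replicate 1 (p = 0.0317). Trends are judged in this section by unadjusted p. In the first run the GATA2 coverage rank correlation was 0.44 (exact permutation p = 0.300). Among the trends and the 0.25 h against 12 h calls of the members, the replicate block changed no other call. The GATA2 self share rank correlation ranged from -0.0918 to 0.679 leaving out 1 library, reversed without the 0.25 h replicate 2 library. The RPN1 self share rank correlation ranged from -0.385 to 0.294 leaving out 1 library, and reversed in the first run (0.10) and without RPN1 bin 4 (0.39), an alternative chosen after seeing the data. The RPN1 window share was weaker in the first run (0.44) and within the chromosome (0.73). The GATA2 to RPN1 rank correlation was -0.78 in the first run. The self-contact count of 1 ranged from 0 to 3, and the RPN1 pair count of 0 from 0 to 1, leaving out 1 library; without 0.25 h replicate 1 they were 3 and 1, where 88986 of 137198 bins and 34246 of 1279173 pairs were called. Without balancing the insulation count was 6 and the RPN1 pair count 1, where 56914 of 134553 bins and 15819 pairs were called. With at least 20 contacts no GATA2 pair could be tested. Under median-of-ratios scaling the promoter bin missed the threshold (limma adjusted p = 0.0556). The causes were not tested. Apart from these changes, the single bins named above, and the GATA2 to RPN1 rank correlation of 0, which has no direction, the trends and the 0.25 h against 12 h counts kept their direction and side of the threshold in the alternatives run. The 1 h and 3 h comparisons with 12 h were fitted again in some alternatives, but their member calls there are not given here. The contact and side ratios were also computed in other forms, which are not compared here beyond the values given above. The 1 Mb shares and the partner bins were not rerun.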
